A study of Mus musculus with 9 samples.

Results

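Genes of respiratory complex I, the NADH dehydrogenase of mitochondria, were taken by name: every symbol of the count tables beginning with Nduf and followed by a, b, c, s or v. The rule found 39 of 22637 symbols, and all 39 passed the filter on low counts that left 17315 genes. Of these, 35 encode structural subunits, 7 of them core and 28 supernumerary. Another 2 are assembly factors, Ndufaf1 and Ndufa12l, an older symbol of Ndufaf2, and are given apart. The last 2 carry the family name without being complex I subunits: Ndufa4, now counted as a subunit of cytochrome c oxidase, and Ndufa4l2, its hypoxia-induced relative. Several complex I genes stand under older clone-based symbols that the naming rule passes over, among them Ndufv3 and some Ndufaf assembly factors. They are set beside the family below.

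Complex I (NADH:ubiquinone oxidoreductase) is the large enzyme of the inner mitochondrial membrane that takes electrons from NADH, passes them along a chain of iron-sulfur clusters to ubiquinone and pumps protons. Its peripheral arm holds the N module, which oxidises NADH, and the Q module, which reduces ubiquinone, and its membrane arm holds the proton pumps. A small core of nuclear-encoded subunits and a set of mitochondrially encoded membrane subunits carry out the chemistry, and the many supernumerary subunits around them serve assembly and stability. Proximal tubule cells and the thick ascending limb rank among the cell types of the body richest in mitochondria, because they power sodium transport by oxidative phosphorylation.

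RNA was sequenced from whole kidneys of 129X1/SvJ mice aged 9 weeks in 3 groups of 3 libraries. The WT group was wild type, and its labels give no treatment. The other groups carried the Col4a3 -/- genotype, a model of Alport syndrome in which loss of a basement membrane collagen leads to progressive kidney failure. KO_PBS was given PBS, and KO_antimiR21 an inhibitor of the microRNA miR-21. KO_PBS against WT therefore compares genotype and injection together, KO_antimiR21 against KO_PBS compares the inhibitor with its vehicle within the knockout, and KO_antimiR21 against WT asks how far treated knockout kidneys stood from wild type. The labels name replicates without saying that each was 1 animal, so p-values measure the spread between these libraries.

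Total expected counts were between 26448275 and 31786624 per library, and the lowest count of a subunit in any library was 278.33. Col4a3 transcripts checked the labels: they stood at 371, 257 and 316 CPM (counts scaled to TMM-adjusted library size) in the WT libraries, 44.3, 94.3 and 60.2 in KO_PBS and 104, 70.6 and 138 in KO_antimiR21, with all 6 knockout libraries below all 3 WT libraries. Counts remained in the knockout, and where the deletion lies in the transcript is not given in the sources used here. Summed Y-linked transcripts (CPM here without TMM scaling) showed that WT 1 and WT 3 came from females, at 0.828 and 1.40 CPM. The other 7 libraries came from males, at 100.7 to 120.2 CPM, so sex and genotype partly coincide. In the WT group the deposited names give F for WT 1 and WT 3 and M for WT 2. The deposited names also carry a code, L4 for WT 1 to 3 and KO_PBS 1 and 2, while KO_PBS 3 and all KO_antimiR21 libraries carry L5; what it stands for is not given in the sources used here. The second KO_antimiR21 library stood apart from the other 2 of its group in most of the family, and results that rest on it are given with and without it.

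In KO_PBS kidneys complex I transcripts were lower as a block. Of the 35 subunits, 29 fell against WT at an adjusted p under 0.05 in edgeR's quasi-likelihood test and 0 rose, where 9.85% of the 17315 genes tested were called lower and 14.6% higher. All 35 estimates were negative, with a median log2 fold change of -0.92 beside -0.03 over all tested genes. The extremes were Ndufb10 at -1.22 and Ndufa7 at -0.56, and mean KO_PBS levels were 43.0% to 67.6% of the WT mean (median 52.8%). Every KO_PBS library lay below every WT library in all 35 subunits, against 20.5% of all tested genes, and this includes WT 2, the male WT library. With sex as a covariate the median was -0.83 and all 35 estimates stayed negative, but 0 of 35 subunits, and 0 of 17315 genes, passed the threshold (edgeR adjusted p from 0.0757 to 0.617 for the subunits, 25 of them with an unadjusted p under 0.05). Among male libraries alone the median was -0.81, again with 0 called (edgeR adjusted p from 0.106 to 0.639, 22 with an unadjusted p under 0.05). That fit has 1 WT library, which is assumed to vary like the other groups. Both female libraries are WT, so with the sex term the contrast also rests on WT 2 alone. The sex and male-only fits are therefore not separate checks, and in them sex and fewer WT libraries cannot be told apart. Leaving out a single WT library left 17 subunits called without WT 3, 20 without WT 2 and 22 without WT 1. The count was 14 without KO_PBS 1 and 18 without KO_PBS 2 or KO_PBS 3. Medians in these fits ran from -1.01 to -0.86. The share of all genes called lower dropped in them too, from 9.85% to between 3.8% (without KO_PBS 1) and 6.93% (without WT 2).

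**Figure D1:**
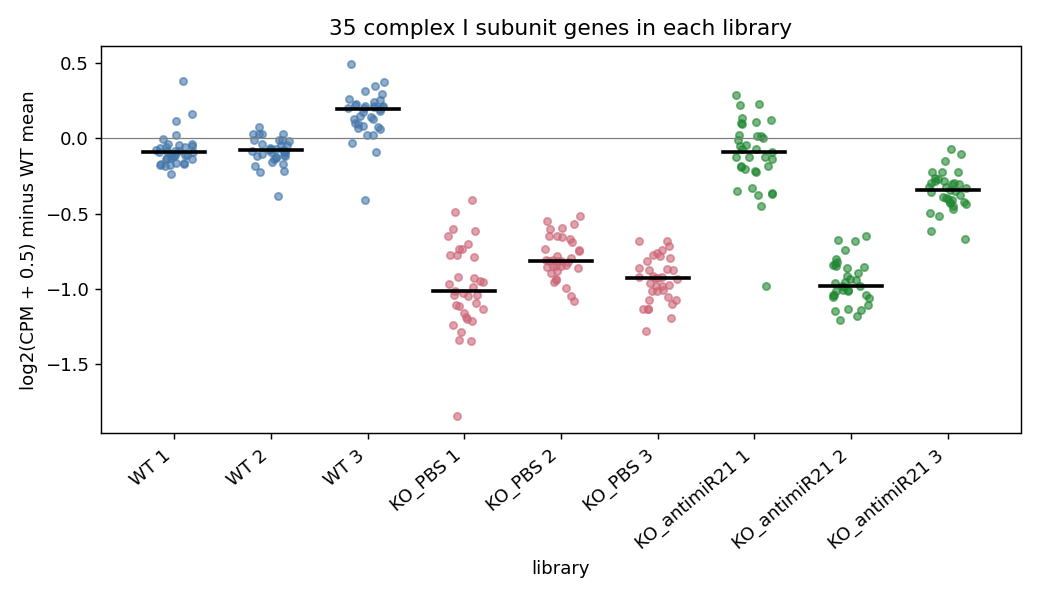
Each point is 1 of the 35 structural subunits in 1 library, as log2(CPM + 0.5) minus the mean of that gene over the 3 WT libraries, and black bars are medians. The KO_PBS medians lie between -1.01 and -0.81, and the KO_antimiR21 medians at -0.09, -0.98 and -0.34.

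All 7 core subunits fell, with a median of -0.99. Ndufs1, the largest subunit and the carrier of several iron-sulfur clusters of the N module, stood at 339, 265 and 195 CPM in the WT libraries, 71.9, 134 and 151 in KO_PBS and 131, 147 and 247 in KO_antimiR21. It gave a log2 fold change of -1.16 ± 0.35 (SE; edgeR adjusted p = 0.0389), the widest error of the core, and its lowest value was KO_PBS 1 while WT 1 was its highest. Ndufv1, which binds NADH and the flavin, stood at 377, 401 and 399 CPM in the WT libraries, 168, 204 and 239 in KO_PBS and 302, 225 and 326 in KO_antimiR21. Its WT libraries were tight and all 3 KO_PBS libraries far below them, with a log2 fold change of -0.95 ± 0.18 (SE; edgeR adjusted p = 0.00784). Ndufv2, its iron-sulfur partner, stood at 224, 228 and 241 CPM in the WT libraries, 103, 128 and 105 in KO_PBS and 201, 114 and 189.98 in KO_antimiR21, with a log2 fold change of -1.05 ± 0.21 (SE; edgeR adjusted p = 0.00894). The 3 catalytic subunits of the N module thus stood at 44.6%, 51.9% and 48.5% of WT, in the order given.

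In the Q module all 6 subunits fell (median -0.99). Ndufs7, which holds the last iron-sulfur cluster before ubiquinone, stood at 177, 161 and 235 CPM in the WT libraries, 90.7, 98.4 and 99.3 in KO_PBS and 173, 87.3 and 139.7 in KO_antimiR21 and had a log2 fold change of -0.99 ± 0.24 (SE; edgeR adjusted p = 0.0199). Ndufs8, a ferredoxin-like subunit, stood at 172, 168 and 212 CPM in the WT libraries, 94.8, 102 and 99.5 in KO_PBS and 186, 94.9 and 137 in KO_antimiR21 and had a log2 fold change of -0.90 ± 0.22 (SE; edgeR adjusted p = 0.021). In both genes WT 3 was the highest library and the KO_PBS libraries lay close together. Ndufs3, a core subunit with no cluster, stood at 227, 224 and 257 CPM in the WT libraries, 107, 129 and 119.8 in KO_PBS and 208, 121 and 188 in KO_antimiR21, with a log2 fold change of -0.99 ± 0.20 (SE; edgeR adjusted p = 0.00883). The supernumerary Ndufa5 had the largest change of the module, with 121, 131 and 186 CPM in the WT libraries, 70.7, 68.9 and 58.6 in KO_PBS and 153, 64.98 and 107 in KO_antimiR21 and a log2 fold change of -1.14 ± 0.29 (SE; edgeR adjusted p = 0.0231). Ndufa9, at the junction of the peripheral and membrane arms, stood at 278, 255 and 286 CPM in the WT libraries, 107, 148 and 143 in KO_PBS and 211, 132 and 218 in KO_antimiR21 and had a log2 fold change of -1.04 ± 0.21 (SE; edgeR adjusted p = 0.00921).

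The nuclear-encoded subunits of the membrane arm are all supernumerary, and most of them fell. In the proximal arm 7 of 9 subunits fell (median -0.87) and in the distal arm 9 of 11 (median -0.95). Ndufb10, a distal-arm subunit facing the intermembrane space, had the largest change of the family. It stood at 189.7, 189 and 241 CPM in the WT libraries, 80.2, 96.9 and 89.3 in KO_PBS and 177, 88.6 and 151 in KO_antimiR21, and gave a log2 fold change of -1.22 ± 0.24 (SE; edgeR adjusted p = 0.00837). Ndufb9 stood at 337, 343 and 421 CPM in the WT libraries, 154, 183 and 181 in KO_PBS and 290.3, 175 and 288 in KO_antimiR21 and gave a log2 fold change of -1.09 ± 0.21 (SE; edgeR adjusted p = 0.00775). Ndufb5, with the lowest p of the family, stood at 196, 185 and 207 CPM in the WT libraries, 90.05, 105 and 94.1 in KO_PBS and 154, 94.1 and 153 in KO_antimiR21 and gave a log2 fold change of -1.02 ± 0.19 (SE; edgeR adjusted p = 0.00641). In each of these 3 the highest KO_PBS library was well under the lowest WT library. Ndufab1, the mitochondrial acyl carrier protein, which also serves fatty acid synthesis in mitochondria, stood at 118, 118 and 128 CPM in the WT libraries, 49.5, 67.3 and 55.2 in KO_PBS and 107, 54.5 and 98.8 in KO_antimiR21 and gave a log2 fold change of -1.09 ± 0.24 (SE; edgeR adjusted p = 0.0126). Ndufab1, Ndufa11, Ndufa12, Ndufb4, Ndufs5 and Ndufs6 have near-identical copies or pseudogenes in RefSeq, so their counts are uncertain where reads were shared.

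The remaining subunits followed the same pattern. Ndufs6, a zinc-binding subunit added late to the N module, stood at 126, 127 and 158 CPM in the WT libraries, 71.2, 78.1 and 74.3 in KO_PBS and 131, 75.97 and 104 in KO_antimiR21 and gave a log2 fold change of -0.88 ± 0.20 (SE; edgeR adjusted p = 0.0133). Ndufa12, which takes the place of the assembly factor Ndufaf2, stood at 176, 184 and 226 CPM in the WT libraries, 100.1, 107 and 91.8 in KO_PBS and 179, 98.3 and 158 in KO_antimiR21 and gave a log2 fold change of -0.97 ± 0.22 (SE; edgeR adjusted p = 0.0136). Ndufa13, also known as GRIM-19, stood at 286, 310.4 and 346 CPM in the WT libraries, 152, 174 and 148 in KO_PBS and 298, 138 and 222 in KO_antimiR21 and gave a log2 fold change of -0.99 ± 0.25 (SE; edgeR adjusted p = 0.0216). In all 3 the KO_PBS libraries lay under the WT libraries, with KO_antimiR21 2 the lowest of its group. Ndufa10, a membrane arm subunit related to deoxynucleoside kinases, stood at 217, 228 and 227 CPM in the WT libraries, 98.1, 127 and 118 in KO_PBS and 174, 111 and 192 in KO_antimiR21 and gave a log2 fold change of -0.97 ± 0.20 (SE; edgeR adjusted p = 0.0105). Ndufa1, a small membrane subunit encoded on the X chromosome, stood at 127, 131 and 148 CPM in the WT libraries, 71.1, 80.7 and 70.5 in KO_PBS and 134, 68.04 and 103 in KO_antimiR21 and gave a log2 fold change of -0.87 ± 0.22 (SE; edgeR adjusted p = 0.0219). Ndufb11, also X-linked, stood at 225, 212 and 285 CPM in the WT libraries, 117, 136 and 121 in KO_PBS and 209, 118 and 175 in KO_antimiR21 and gave a log2 fold change of -0.95 ± 0.22 (SE; edgeR adjusted p = 0.0144). The X-linked pair also fell, and in both KO_antimiR21 2 was the lowest library of its group. Among the others that were called, log2 fold changes were -0.97 for Ndufb3, -0.88 for Ndufb4, -0.73 for Ndufb6, -0.88 for Ndufb8, -0.75 for Ndufc2 and -0.91 for Ndufs5.

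The 6 subunits short of the threshold against WT were Ndufa2, Ndufa3, Ndufa7, Ndufa11, Ndufb2 and Ndufb7, with edgeR adjusted p between 0.0504 and 0.0793. Their estimates included -0.85 for Ndufb7, -0.80 for Ndufa3 and -0.78 for Ndufb2. Nearest to 0 were 3 small supernumerary subunits. Ndufa7 stood at 94.97, 86.05 and 123 CPM in the WT libraries, 75.3, 68.3 and 62.3 in KO_PBS and 101, 62.4 and 78.5 in KO_antimiR21, or -0.56 ± 0.20 on the log2 scale (SE; edgeR adjusted p = 0.0724). Ndufa2 stood at 204, 204 and 267 CPM in the WT libraries, 159, 139 and 139 in KO_PBS and 261, 139 and 172 in KO_antimiR21, or -0.63 ± 0.23 (edgeR adjusted p = 0.0793). Ndufa11 stood at 133, 125 and 162 CPM in the WT libraries, 91.3, 91.6 and 81.8 in KO_PBS and 150.1, 77.1 and 100.1 in KO_antimiR21, or -0.66 ± 0.23 (edgeR adjusted p = 0.0638). Even in these the KO_PBS libraries all lay under the WT libraries, and all 35 subunits had an unadjusted edgeR p under 0.05 (over all tested genes, 17.2% were lower and 19.7% higher at that level). The spread among the subunits was smaller than their own errors. The SD of the 35 log2 fold changes was 0.15, beside a median SE of 0.22, and 30 subunits lay within 1 SE of the family median and all 35 within 2. The farthest, Ndufa7, lay 1.78 of its SEs above the median. The genes share their libraries, so variation common to them enters each SE but not this spread. These values therefore cannot show whether the subunits fell equally. By module the counts were 7 of 9 for N (median -0.88), 6 of 6 for Q, and as above for the membrane arm, and 22 of 28 supernumerary subunits fell (median -0.88). Differences between modules were not tested.

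**Figure D2:**
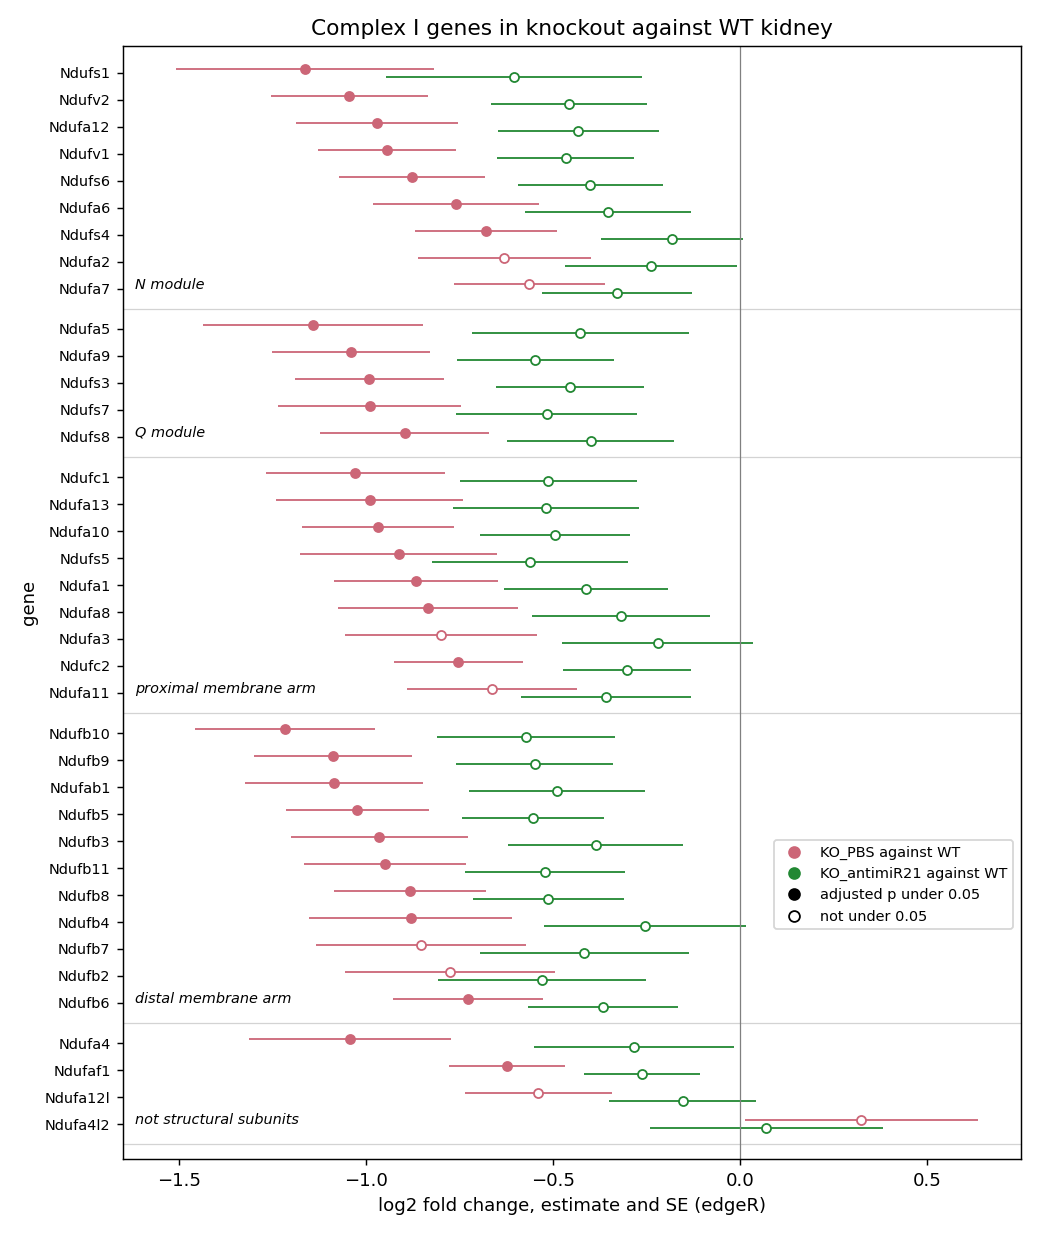
Log2 fold change against WT (x axis, point and SE from edgeR) of 38 of the 39 genes, by module, for KO_PBS and KO_antimiR21, with filled points for an adjusted p under 0.05. Every subunit shown lies below 0 in both comparisons, and the KO_antimiR21 estimates, of which 0 are called, reach from -0.60 to -0.18.

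Of the 4 genes with the family name that are not structural subunits, Ndufa4 and Ndufaf1 fell in KO_PBS and the other two did not pass the test. Ndufa4 fell with the subunits, from 534, 603 and 645 CPM in WT to 272, 311 and 282 in KO_PBS, and stood at 676, 292 and 495 in KO_antimiR21. Against WT it had a log2 fold change of -1.04 ± 0.27 (SE; edgeR adjusted p = 0.0238) in KO_PBS. Ndufa4l2 was scarce, at 4.39, 2.97 and 4.71 CPM in the WT libraries, 4.55, 5.34 and 5.22 in KO_PBS and 6.21, 3.42 and 3.05 in KO_antimiR21, and its groups overlapped (0.32 ± 0.31, edgeR adjusted p = 0.5). Of the assembly factors, Ndufaf1, a chaperone of the membrane arm intermediate, stood at 28.4, 26.3 and 26.7 CPM in the WT libraries, 16.004, 18.3 and 18.5 in KO_PBS and 23.8, 17.98 and 26.1 in KO_antimiR21 and fell in KO_PBS with a log2 fold change of -0.62 ± 0.16 (SE; edgeR adjusted p = 0.0207). Ndufa12l (Ndufaf2), a chaperone replaced by Ndufa12 late in assembly, stood at 16.8, 20.3 and 20.6 CPM in the WT libraries, 14.9, 13.3 and 11.5 in KO_PBS and 21.3, 13.3 and 17.2 in KO_antimiR21. Its KO_PBS estimate was -0.54 ± 0.20 (edgeR adjusted p = 0.0782), and its KO_PBS and WT libraries did not overlap. Among 11 other assembly factors tested, such as Acad9, Ecsit and Foxred1, 5 fell and 0 rose (median -0.65), with the lowest p for Acad9 at -1.12 ± 0.23. Of 6 further complex I genes listed under older symbols, 5 fell (median -0.75): Ndufv3 and the assembly factors Ndufaf3, Ndufaf4, Ndufaf6 and Ndufaf7. The assembly factor Ndufaf5 did not pass the test (-0.45 ± 0.17, edgeR adjusted p = 0.0832). Ndufv3, listed as 1500032D16Rik, is the structural subunit among these 6 and belongs to the N module. For it WT had 184, 211 and 225 CPM and KO_PBS 106, 118 and 106, with a log2 fold change of -0.91 ± 0.22 (SE, edgeR adjusted p = 0.0174).

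The mitochondrial genome encodes the membrane core of the enzyme, and of its complex I genes only mt-Nd4, a proton-pumping subunit, was matched and analysed here. Its levels were 16399.6, 16256 and 14159.6 CPM in the WT libraries, 4384, 8374 and 6871 in KO_PBS and 14056, 7272 and 14758 in KO_antimiR21. KO_PBS was lower, with a log2 fold change of -1.25 ± 0.35 (SE; edgeR adjusted p = 0.0325), and KO_PBS 1 was the lowest library. That call was lost without any single WT or KO_PBS library (edgeR adjusted p from 0.0523 without KO_PBS 2 to 0.0863 without KO_PBS 1), and with sex (0.164), the library code (0.0749) or the replicate block (0.079) in the fit, in male libraries alone (0.191) and with limma on the deposited matrix (0.0592). The log2 fold change was between -1.47 and -1.04 in the fits without a single WT or KO_PBS library. The nuclear subunits of the other respiratory complexes were lower too. For complex II, 4 of 4 fell (median -0.93), for complex III 8 of 9 (median -0.995), for complex IV 9 of 9 (median -0.95) and for ATP synthase 12 of 15 (median -0.88), with 0 rising in any of them. Sdhb, the iron-sulfur subunit of complex II, had a log2 fold change of -1.32 ± 0.26, and Uqcrfs1, the Rieske protein of complex III, -1.20 ± 0.25. Genes for mitochondrial import, chaperones and outer membrane channels were lower in part: 7 of 19 fell (median -0.57), with the lowest p for Phb, Vdac1 and Hspe1. No test was made of whether complex I differed from these groups.

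Factors known to drive nuclear respiratory genes were measured in the same libraries, and 3 of 15 fell while 0 rose (median -0.37). Esrra, the nuclear receptor ERR alpha, stood at 147, 129 and 150.1 CPM in the WT libraries, 66.5, 77.8 and 88.5 in KO_PBS and 121, 85.2 and 115 in KO_antimiR21, with a log2 fold change of -0.88 ± 0.17 (SE; edgeR adjusted p = 0.00729). Esrrb, a relative of Esrra, stood at 55.3, 44.1 and 84.6 CPM in the WT libraries, 14.1, 18.2 and 22.1 in KO_PBS and 21.5, 27.7 and 42.5 in KO_antimiR21 and gave a log2 fold change of -1.76 ± 0.32 (SE; edgeR adjusted p = 0.00579). Tfam, which packages mitochondrial DNA and activates its transcription, gave a log2 fold change of -0.55 ± 0.16 (SE; edgeR adjusted p = 0.0328). The factors whose motifs are searched below gave 0.04 ± 0.12 for Nrf1, -0.00 ± 0.13 for Yy1 and -0.37 ± 0.19 for the ETS factor Gabpa, with edgeR adjusted p of 0.841, 0.995 and 0.203.

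Cell type markers moved with the same groups. Of 14 proximal tubule markers, 9 fell in KO_PBS (median -1.50), with the lowest p for Miox, Aqp1 and Slc13a3, and their summed level was 14548 to 20329.7 CPM in WT, 2715 to 7886 in KO_PBS and 6397 to 12284 in KO_antimiR21. In the list for thick limb and distal convoluted tubule 4 of 8 genes fell (median -1.36), and of 7 collecting duct markers 5 (median -1.15). Macrophage markers rose in 9 of 10 (median 3.46), with sums of 192 to 269 CPM in WT, 1230.1 to 1339 in KO_PBS and 646 to 1485 in KO_antimiR21. Fibroblast markers rose in 5 of 6 and T cell markers in 6 of 6, while 0 of 5 podocyte markers changed, 1 of 5 endothelial markers fell and 4 of 8 pericyte markers rose. The T cell gene Cd3e in WT 1 was the only marker at 0 in any library. In KO_PBS 1, 2 and 3 the median subunit stood at -1.01, -0.81 and -0.93 relative to WT (log2) and the median proximal tubule marker at -2.64, -1.22 and -1.03, so KO_PBS 1 was lowest in both and the markers were spread more widely. In bulk kidney RNA, fewer tubule cells and less complex I RNA per cell cannot be told apart, and the part of cell composition in the fall of the subunits was not tested.

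**Figure D3:**
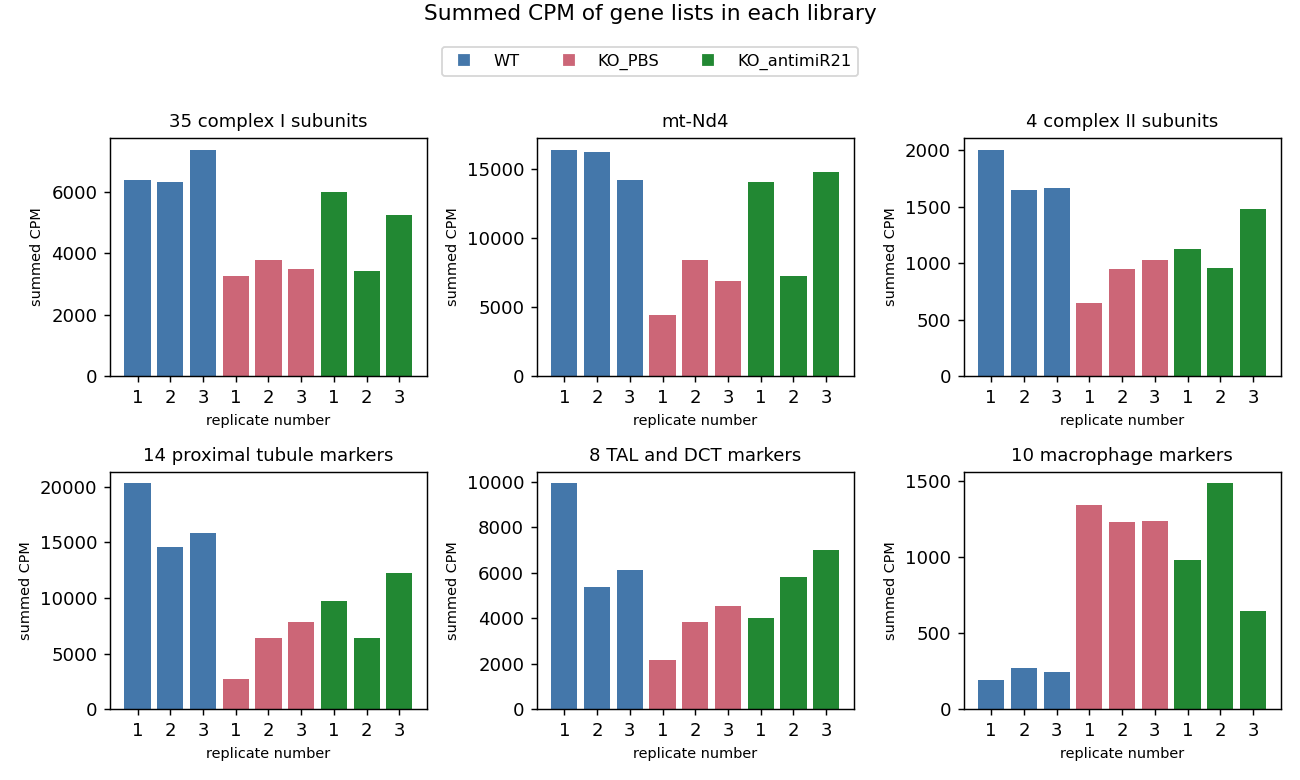
Bars give the summed TMM-scaled CPM of 6 gene lists (y axes starting at 0) in each library, by group and replicate number. Subunit sums are 6328 to 7385 CPM in WT and 3275 to 3767 in KO_PBS, and KO_antimiR21 2 stands at 3429 beside 5993 and 5262 in the other 2 libraries of its group.

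With the miR-21 inhibitor, 0 of 35 subunits were called against KO_PBS, and edgeR called 0% of all 17315 genes in either direction (adjusted p of the subunits from 0.707 to 0.894). All 35 estimates were positive, with a median of 0.48 beside -0.01 over all genes and a range of 0.23 to 0.71. At an unadjusted edgeR p under 0.05, 17 of 35 subunits were higher, where 3.57% of all genes were higher and 3.38% lower. That count was 31 without KO_antimiR21 2, and 0 without KO_antimiR21 1 or without KO_antimiR21 3. It was 2 without KO_PBS 1, 5 without KO_PBS 3, 10 without KO_PBS 2 and 0 with the library code as a covariate. The share of all genes at that level was taken in the full fit only, so these counts have none beside them. DESeq2 and limma on the deposited matrix also called 0 subunits, and over all genes DESeq2 called 7 higher and 12 lower. The 2 groups overlapped in all 35 subunits, while 3.83% of all genes were separate upwards and 6.85% downwards. Ndufv2 had the lowest p, with 0.59 ± 0.21 (SE; edgeR adjusted p = 0.707), followed by Ndufs3 at 0.54 ± 0.20 and Ndufb10 at 0.65 ± 0.24. Ndufc2, a membrane arm subunit, stood at 85.4, 83.8 and 93.7 CPM in the WT libraries, 50.9, 55.4 and 49.6 in KO_PBS and 82.3, 52.1 and 79.02 in KO_antimiR21, or 0.45 ± 0.17 against KO_PBS. Ndufs4, a peripheral arm subunit whose loss causes Leigh syndrome, stood at 83.2, 93.1 and 106 CPM in the WT libraries, 60.9, 59.5 and 55.7 in KO_PBS and 102, 59.6 and 87.3 in KO_antimiR21, or 0.50 ± 0.19. In these genes, as in most of the family, KO_antimiR21 1 and 3 were high and KO_antimiR21 2 sat among the KO_PBS libraries.

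That split ran through most of the family. KO_antimiR21 1 and KO_antimiR21 3 both lay above every KO_PBS library in 32 of 35 subunits. KO_antimiR21 2 was at or below the highest KO_PBS library in 35 of 35, and inside the KO_PBS range in 27. Relative to the WT mean, the median subunit stood at -0.09, -0.98 and -0.34 (log2) in KO_antimiR21 1, 2 and 3, beside -1.01 to -0.81 in the KO_PBS libraries. KO_antimiR21 1 was within or above the WT range in 19 subunits and KO_antimiR21 3 in 2, and the first exceeded the third in 30 of 35. The median coefficient of variation over the subunits was 32.3% in KO_antimiR21, 12.8% in WT and 9.31% in KO_PBS. Without KO_antimiR21 2 the median against KO_PBS was 0.70 with 0 called (lowest edgeR adjusted p = 0.134), and without KO_antimiR21 1 it was 0.29. mt-Nd4 split the same way (14056, 7272 and 14758 CPM), and gave 0.88 ± 0.35 against KO_PBS (edgeR adjusted p = 0.707). Macrophage marker sums were 977, 1485 and 646 CPM and proximal tubule sums 9701, 6397 and 12283.5 CPM in KO_antimiR21 1, 2 and 3. KO_antimiR21 2 thus also had the most macrophage and the least proximal tubule transcript. In the same order, thick limb and distal convoluted tubule sums were 3991, 5816 and 7009 CPM, lowest in KO_antimiR21 1. Collecting duct sums were 676, 626 and 855 CPM and fibroblast sums 970, 950 and 488 CPM. The part of cell composition in the split was not tested.

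Against WT, KO_antimiR21 had 0 of 35 subunits called, where edgeR called 0.427% of all genes lower and 6.72% higher. All 35 estimates were negative (median -0.45, range -0.60 to -0.18, edgeR adjusted p from 0.136 to 0.706), and 10 had an unadjusted p under 0.05, beside 6.78% of all genes lower at that level. Leaving out a library moved these 10 to 33 without KO_antimiR21 1 and 1 without KO_antimiR21 2. The count was 2 without WT 3, 3 without WT 1 and 6 without WT 2 or without KO_PBS 3. With sex as a covariate, where WT 2 alone carries the contrast, 0 were left. Here too the share of all genes at that level was taken in the full fit only. In 15 subunits all 3 KO_antimiR21 libraries lay below WT, beside 9.83% of all genes. Among those with the lowest p were Ndufb5 (-0.55 ± 0.19), Ndufb9 and Ndufa9 (both -0.55 ± 0.21). Ndufb8, whose protein is a common blot marker of assembled complex I, stood at 324, 335 and 417 CPM in the WT libraries, 182, 212 and 189 in KO_PBS and 305, 183 and 266 in KO_antimiR21, or -0.51 ± 0.20 against WT. Without KO_antimiR21 2 the median against WT was -0.22, and 32 of 35 estimates stayed negative. Every KO_antimiR21 library carries the code L5 and every WT library L4, so these libraries alone cannot separate whatever the code marks from this contrast. A code term can be fitted only through KO_PBS, where KO_PBS 3 is the lone L5 library. With that term the median against WT was -0.33, and all 35 estimates stayed negative. Within L4, KO_PBS 1 and 2 against WT gave 28 subunits lower (edgeR; 6.64% of all genes lower), with a median of -0.91, and within L5 KO_antimiR21 against KO_PBS 3 gave a median of 0.52 with 0 called, where the lone KO_PBS library is assumed to vary like the rest.

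In several libraries the difference from the group mean went with transcript length. Spliced lengths of the subunits, from GENCODE vM21, run from 419 bases for Ndufa1 to 2625.5 for Ndufs1. KO_antimiR21 1 read short transcripts high: over 9427 genes its deviation from the group mean had a Spearman correlation of -0.46 with length, and over the 35 subunits -0.48. KO_PBS 1 (-0.61 over the subunits) and WT 3 (-0.44) leaned the same way, with -0.34 and -0.32 over all 9427 genes. KO_PBS 3 (0.55) and KO_antimiR21 3 (0.56) leaned the other way over the subunits, with 0.34 and 0.12 over all genes, while KO_antimiR21 2 had 0.15 over the subunits and 0.41 over all genes. The genes share their libraries, so these values describe the libraries. Deviations from a group mean cancel over its libraries, so opposite leans within a group are not independent. Ndufs1, the longest subunit, differed from the short ones: in KO_antimiR21 it ran 131, 147 and 247 CPM, lowest in the library where most short subunits were highest. The median of the 22 subunits under 1000 bases was -0.03 in KO_antimiR21 1 and -0.98 in KO_antimiR21 2, and that of the 13 longer ones -0.23 and -0.96, so both length classes were lower in KO_antimiR21 2. With an offset that takes the length trend out of each library, 35 of 35 subunits were called lower in KO_PBS against WT (median -0.85, 11705 genes, 13% of them lower), and 0 in either of the other comparisons.

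**Figure D4:**
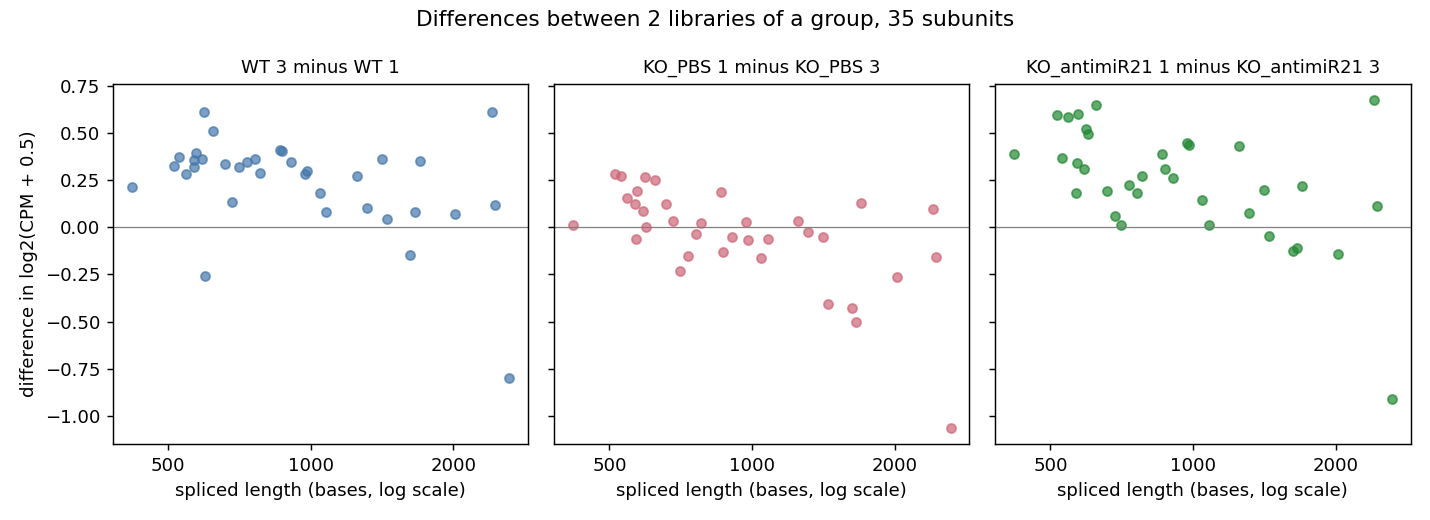
Each point is 1 of the 35 subunits, with its spliced length in bases on a log x axis and, on the y axis, the difference in log2(CPM + 0.5) between 2 libraries of 1 group. The panels show WT 3 minus WT 1, KO_PBS 1 minus KO_PBS 3 and KO_antimiR21 1 minus KO_antimiR21 3. Each pair sets a library with a negative length correlation over the subunits against a library with a positive one, so the slope follows from the choice. In all 3 panels short subunits lie above most long ones, and the lowest point is Ndufs1, the longest. Ndufb2, also long (2413 bases), lies above 0 in each panel.

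Per kilobase, levels could be compared between genes. In WT the median subunit stood at 219 CPM per kilobase, the highest being Ndufb9 at 522 and the lowest Ndufb2 at 26.6. In KO_PBS the median was 111 CPM per kilobase and in KO_antimiR21 153. The lengths come from a later annotation and another build than the counts, so single values, above all of genes with long annotated transcripts such as Ndufb2 and Ndufab1, carry that uncertainty.

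Because the subunits moved together, their promoters were searched for the cores of motifs that bind known regulators of respiratory genes. RefSeq promoters (GRCm38.p6), 250 bases before to 50 after the start, were found for 31 of 35 subunits. Each core was 7 letters and was searched on both strands: CCGGAAG for ETS factors, AAGGTCA for ERR, GCATGCG for NRF1, AAGATGG for YY1 and TGACGTC for the cyclic AMP response element (CRE). The YY1 core was in 7 subunit promoters (22.6%, beside 7.28% of 27025 genes), the CRE in 4 (12.9% beside 3.60%), the ETS core in 4 (12.9% beside 9.93%), and the ERR and NRF1 cores in 3 each (9.68% beside 5.38% and 4.01%). One or more of the 5 were in 19 of 31 subunits (61.3%) and in 26.2% of all genes, and subunit promoters were richer in G and C (median 59.0% against 52.7%). A match is a description of letters, and binding was not measured.

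The 7 YY1 matches are shown because they share a position. All 7 lie on the sense strand, between 23 and 39 bases after the RefSeq start, and the ATG within each is the annotated start codon in GENCODE vM21 (motif in capitals, 5′ to 3′, GRCm38.p6). The same letters around a start codon near the cap are also the core of TISU, a translation initiator element of short leaders, so the letters alone do not say which factor reads them.
Ndufa3, chr7:3617384-3617413, + strand: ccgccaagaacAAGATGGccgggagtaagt
Ndufc1, chr3:51408915-51408944, - strand: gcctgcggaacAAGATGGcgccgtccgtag
Ndufs7, chr10:80249462-80249491, + strand: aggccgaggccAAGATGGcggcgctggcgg
Ndufa9, chr6:126849097-126849126, - strand: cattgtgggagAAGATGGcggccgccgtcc
Ndufs6, chr13:73328433-73328462, - strand: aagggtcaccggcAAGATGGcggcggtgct
Ndufs4, chr13:114388045-114388074, - strand: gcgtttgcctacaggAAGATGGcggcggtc
Ndufb8, chr19:44555393-44555422, - strand: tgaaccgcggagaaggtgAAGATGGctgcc

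A sense-strand AAGATGG within the 50 bases after the start was in 22.6% of the subunits with a sequence and in 1.54% of all 27025 genes. This narrower window follows the position of the matches already found, so the subunit share could not fall while that of all genes could. The 27025 genes were not limited to those tested here. Subunits with the match had a median log2 fold change of -0.88 in KO_PBS against WT, from Ndufs4 at -0.68 to Ndufa9 at -1.04, and the other 24 a median of -0.93 with a range of -1.22 to -0.56 that contains them. Ndufc1 and Ndufa9 carry the match with changes of -1.03 and -1.04, and Ndufa3, whose change missed the threshold, carries it too.

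The NRF1 and CRE cores lay upstream of or at the start, and Ndufa11 holds both. They are shown for the subunits in which the core reads on the sense strand, with the core in capitals.
Ndufa8, chr2:36049328-36049357, - strand: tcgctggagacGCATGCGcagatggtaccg
Ndufa6, chr15:82354356-82354385, - strand: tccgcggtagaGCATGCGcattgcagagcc
Ndufa11, chr17:56717693-56717722, + strand: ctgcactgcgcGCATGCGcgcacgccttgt
Ndufa11, chr17:56717593-56717622, + strand: tttacctttccTGACGTCacgggcgtctct
Ndufa10, chr1:92473807-92473836, - strand: acactcagtggTGACGTCatggcagcgcgc
Ndufb2, chr6:39592540-39592569, + strand: gtgcgacgcagTGACGTCacgggccgggac

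Their log2 fold changes in KO_PBS against WT were -0.83 for Ndufa8, -0.76 for Ndufa6, -0.66 for Ndufa11, -0.97 for Ndufa10 and -0.78 for Ndufb2, within the range of the family. Ndufa5 also holds the CRE core, on the antisense strand only, and is not shown. It had a larger change than these, at -1.14.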

How the data were processed

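Whole kidney RNA-seq libraries were quantified by the authors as RSEM expected counts per gene symbol, the deposited unit of the 9 count tables; RSEM, Bowtie, limma and build mm9 are named in the submitters' processing notes, without versions. TruSeq RNA v2 libraries were used per the labels' protocols, and strand-specific counting is not given in the sources used here. A deposited matrix holds log2 values made by the authors; in each library it equals log2 CPM plus 1 constant.

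Expected counts were rounded and fitted in edgeR 4.0.16 (R 4.3.3): filterByExpr, TMM, 1 fit with 3 group means, two-sided quasi-likelihood F tests, Benjamini-Hochberg adjustment over 17315 genes per comparison, threshold 0.05. Printed CPM are TMM-scaled, except the Y-linked sums, which are scaled to total counts. SEs are derived from the F statistic, and the code was tested on simulated data. Alternatives used DESeq2 1.42.0, limma 3.58.1, other scalings, filters, covariates and sample sets. The members and gene lists were chosen with earlier results of these data known.

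Given in full were, per comparison, the 6 called subunits with the largest fold change, the 3 with the lowest p and the 3 nearest 0 (with fewer than 3 called, the 6 with the lowest p). The core subunits, the assembly factors found by the naming rule and the 2 misnamed genes were added. A list of 12 hypoxia targets, not described above, had 5 genes lower and 0 higher in KO_PBS against WT (median -0.69), beside 9.85% of all genes lower. From each other list up to 3 genes with the lowest p were given. Genes named beyond that, such as Ndufv3, Nrf1, Yy1, Gabpa, Ecsit, Ndufa1, Ndufa10, Ndufa12, Ndufa13, Ndufb3, Ndufb4, Ndufb6, Ndufb11, Ndufs5 and the subunits with printed promoter windows, were chosen after their values were seen. The values of 1 gene are not reported here. Same-numbered libraries did not deviate together in every pair (correlations from -0.452 to 0.486), so replicate numbers were not used for pairing.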

Additional observations from a re-analysis of the deposited data

How the results depend on the processing

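The number of subunits lower in KO_PBS against WT was 29. With sex as a covariate, where the contrast rests on WT 2 alone, it was 0 (0% of all genes lower). In male libraries only, where 1 WT library remains, the median log2 fold change was -0.81. The number called was 16 with the library code as a covariate (6.21% of all genes lower). Leaving out 1 library gave 14 (without KO_PBS 1, 3.8% of all genes lower) to 35 (without KO_antimiR21 1, 9.68%). It gave 17 without WT 3 (5.56%), and 18 without KO_PBS 2 (4.4%) or without KO_PBS 3 (6.47%). The replicate block, whose numbers did not pair the libraries, gave 22 (6.52%). All 35 estimates were negative under every one of these settings. The median was -0.65 with library size as the only scaling, which moved the median of all genes from -0.03 to 0.25. Among the 2 assembly factors found by the naming rule, 1 was lower in KO_PBS, but 2 were with DESeq2's Wald test. The number was 0 with library size only and with sex as a covariate. It was 0 to 2 without single libraries (0 without WT 1, KO_PBS 1 or KO_PBS 2, and 2 without KO_antimiR21 2). In KO_antimiR21 against WT, DESeq2's Wald test called 1 subunit lower. Signs of uncalled genes turned in a few fits, and the cause was not tested. Against KO_PBS, Ndufb2 ran from -0.0764 (without KO_antimiR21 1) to 0.46 (without KO_antimiR21 2) when single libraries were left out. Against WT, the estimates of 4 genes ran from their lowest without KO_antimiR21 1 to their highest without KO_antimiR21 2: Ndufa3 from -0.56 to 0.0356, Ndufb4 from -0.56 to 0.0307, Ndufs4 from -0.36 to 0.0264 and Ndufa12l from -0.33 to 0.0218. Ndufa12l was 0.14 with the library code as a covariate. Ndufa4l2 was -0.00785 with the library code, -0.0785 without WT 2, -0.31 without KO_antimiR21 1 and 0.27 without KO_antimiR21 3. The length offset and the fits within a single library code were chosen after seeing the data.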
